A study of Mus musculus with 6 samples.

Results

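Trhr, Cartpt and Lypd1 are 3 genes of neuromodulator signalling whose levels were lower in the amygdala of mice on a zinc diet than in mice on a control diet. They were chosen by that measured difference between the diets, so their diet values are given as a description and without a test. The array held 5 probe sets annotated to them among 45101 in all: 2 for Trhr, 1 for Cartpt and 2 for Lypd1. Of these 5, 4 had a mean log2 level of at least 4 over the arrays, the minimum used here, and so were among the 22877 probe sets analysed across the genome. RNA came from amygdala dissected out of male 129S1/SvImJ (S1) mice, 8 to 10 weeks old, 2 h after they had been trained in fear extinction. There were 3 mice on the zinc diet (replicates 3, 7 and 10) and 3 on the control diet (replicates 1, 9 and 11), with 1 array per mouse. Both groups had the same strain, sex, age and training. S1 mice are inbred and extinguish fear poorly, and the control mice share that trait. The labels call the diets "ZnR" and "Ctrl" without a zinc content, so whether the zinc diet held more or less of the metal is not stated here. Values are the authors' log2 probe set levels, on which a difference of 1 is a doubling.

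Each of the genes acts in a different signalling system. Trhr encodes the receptor for thyrotropin-releasing hormone (TRH), a short peptide that is a pituitary hormone signal and also a neuromodulator within the brain. The receptor couples to Gq proteins and, through phospholipase C, to calcium release. Cartpt encodes the precursor of the CART peptides, which are released by neurons of the hypothalamus, accumbens and amygdala and have been tied to feeding, reward and stress. Lypd1 encodes a small cell-surface protein of the LY6/uPAR family. Some proteins of this family, called prototoxins for their likeness to snake toxins, bind nicotinic acetylcholine receptors. Mice without Lypd1 have been described as more anxious.

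The array medians lay between 4.04 and 4.09, and the arrays correlated with each other at r between 0.996 and 0.998 over all probe sets but controls. At an adjusted p under 0.05, limma called 0 of the 22877 probe sets (0.0%), and the smallest adjusted p was 0.0763. At an unadjusted p under 0.05 it called 629 (2.75%) lower and 831 (3.63%) higher in zinc diet mice, 6.38% in either direction. The median log2 difference of all these probe sets was 0.0091.

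Trhr was lower in every zinc diet mouse than in any control mouse. Its brighter probe set had log2 levels of 8.21, 8.20 and 8.09 in zinc diet replicates 3, 7 and 10, against 8.92, 9.26 and 9.39 in control replicates 1, 9 and 11. The zinc diet mice lay within 0.12 of each other, whereas the control mice spread over 0.47, with replicate 1 the lowest of them. The means were 8.16 ± 0.068 in zinc diet mice and 9.19 ± 0.24 in controls (SD, n = 3 each), a difference of -1.02 ± 0.13 (moderated SE). That is 49.2% of the control level, and in bulk tissue fewer cells of a type and less RNA per cell cannot be told apart. The gap between the groups, 0.71 from the highest zinc diet mouse to the lowest control mouse, was wider than the range within either. In all 9 pairings of a zinc diet mouse with a control mouse the zinc diet mouse was lower, by 0.71 to 1.30. Groups that do not overlap in this direction made up 5.33% of all probe sets tested (6.66% in the other direction), and the contrast had served to choose the genes, so nothing is read from the count of members. Of the 22877 probe sets, 11 had a more negative difference, a place that reflects how the gene was chosen. The gene lies on chromosome 15 from 44195924 to 44235912 in the mouse assembly GRCm38.p6.

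The dimmer Trhr probe set was designed from the same GenBank entry but stayed at levels of 2.26, 2.09 and 2.27 in zinc diet mice, against 2.37, 2.58 and 2.69 in control mice. These are under the minimum of 4, where a value cannot be told from background without the scanner files, which were not used here. The means were 2.21 ± 0.10 in zinc diet mice and 2.55 ± 0.16 in controls (SD, n = 3 each), a difference of -0.34. The control mice had the same order on both probe sets, but the zinc diet mice did not: replicate 10 was the lowest of them on the brighter and the highest on the dimmer. Over the 6 arrays the probe sets correlated at r = 0.92, and at r = 0.75 for deviations from the diet means. With all values under 4 set to 4, this probe set gives no difference, an outcome fixed in advance because all its values are under 4. Since its levels cannot be told from background, the size of the Trhr difference is read from the brighter one.

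Cartpt, measured by a single probe set, had log2 levels of 8.71, 8.72 and 8.41 in zinc diet replicates 3, 7 and 10. Control replicates 1, 9 and 11 had 9.55, 9.36 and 9.62. Again the groups did not overlap, with a gap of 0.64 against ranges of 0.31 in zinc diet mice and 0.25 in controls. The means were 8.61 ± 0.18 in zinc diet mice and 9.51 ± 0.13 in controls (SD, n = 3 each). The difference of -0.90 ± 0.12 (moderated SE) is 53.7% of the control level. A more negative one was found in 18 probe sets, a place that again reflects how the gene was chosen. No other probe set on the array was annotated to Cartpt, so agreement between probe sets could not be examined for this gene. It lies on chromosome 13 from 99898483 to 99910179 (GRCm38.p6).

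The 250 bases before the Cartpt start in the RefSeq promoter table are printed because Cartpt is a known target of the cyclic AMP-responsive factor CREB, an activity-regulated factor. The window is chr13:99900684-99900933 on the minus strand of GRCm38.p6, written 5′ to 3′, with capitals marking a cyclic AMP response element (CRE).
Cartpt: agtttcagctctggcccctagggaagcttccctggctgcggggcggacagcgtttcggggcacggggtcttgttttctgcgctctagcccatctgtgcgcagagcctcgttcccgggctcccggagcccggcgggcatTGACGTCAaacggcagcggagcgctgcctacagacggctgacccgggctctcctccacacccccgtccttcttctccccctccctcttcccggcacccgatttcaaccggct
The full CRE letters, TGACGTCA, occupy the bases 112 to 105 before the start. Such letters occur in 1.55% of all 32851 windows of this length in the table. The palindrome holds the shorter half-site TGACG on both strands, which by itself occurs on either strand in 17.8% of windows. The window is 66.8% G and C, against a median of 52.4% over all windows. A match describes the letters only, and no binding was measured here. The window lies inside the gene span given above, and the arrays do not show which start of Cartpt was in use.

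Lypd1 was read by 2 probe sets from different cDNA and EST entries, and they gave nearly the same mean difference with different scatter. On the brighter one, of the type (_a_at) that matches alternative transcripts of 1 gene, zinc diet replicates 3, 7 and 10 had 10.63, 10.49 and 10.74, against 11.22, 11.55 and 11.30 in control replicates 1, 9 and 11. The groups did not overlap, and the gap between them was 0.48. The means were 10.62 ± 0.12 in zinc diet mice and 11.36 ± 0.17 in controls (SD, n = 3 each), a difference of -0.74 ± 0.11 (moderated SE), or 60.0% of the control level.

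On the dimmer Lypd1 probe set, zinc diet replicates 3, 7 and 10 had 7.69, 7.88 and 8.31, against 8.13, 8.93 and 9.13 in control replicates 1, 9 and 11. Here the groups overlapped, because zinc diet replicate 10 lay 0.18 above control replicate 1. In 8 of 9 pairings the zinc diet mouse was the lower. The means were 7.96 ± 0.32 in zinc diet mice and 8.73 ± 0.53 in controls (SD, n = 3 each), a difference of -0.77 ± 0.28 (moderated SE). The mean differences of the probe sets were therefore 0.034 apart, within either SE. Without control replicate 1 the difference on the dimmer probe set was -1.07, and without control replicate 11 it was -0.57. The gene lies on chromosome 1 from 125867622 to 125913175 (GRCm38.p6).

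**Figure D1:**
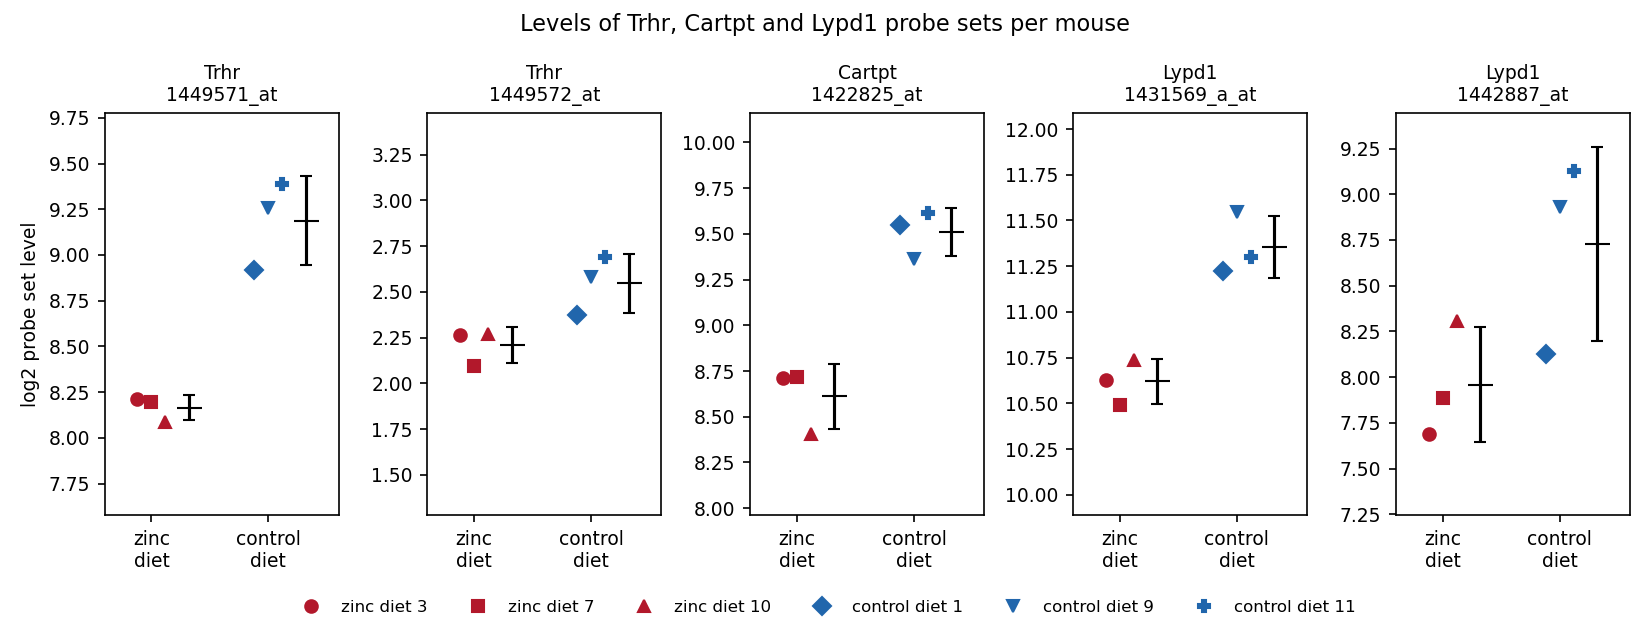
Log2 level (y axis, each panel spanning the same 2.2 units) of the 5 probe sets in the 3 zinc diet and 3 control mice; symbols mark mice, and bars show the mean ± SD. Zinc diet mice lie below all control mice on 4 probe sets and overlap with control replicate 1 on the dimmer Lypd1 probe set, while the dimmer Trhr probe set stays under 2.7.

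Agreement between the Lypd1 probe sets can be set against other genes. Over the 6 arrays they correlated at r = 0.82, whereas the median over 13838 probe set pairs of 5075 named genes was 0.23, and 10.0% of pairs reached the value of Lypd1. That figure includes the diet difference which chose the gene. For deviations from the diet means the Lypd1 probe sets correlated at r = 0.56 and the median pair at 0.20. These correlations rest on 6 arrays that share one normalization, and they are descriptions.

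RefSeq lists 3 start windows for Lypd1, and the second is printed because it alone of the 3 holds a CRE half-site. It lies at chr1:125912215-125912464 on the minus strand of GRCm38.p6. Capitals mark the half-site TGACG, read on the other strand, together with an E-box, CACGTG, with which it shares 2 bases.
Lypd1: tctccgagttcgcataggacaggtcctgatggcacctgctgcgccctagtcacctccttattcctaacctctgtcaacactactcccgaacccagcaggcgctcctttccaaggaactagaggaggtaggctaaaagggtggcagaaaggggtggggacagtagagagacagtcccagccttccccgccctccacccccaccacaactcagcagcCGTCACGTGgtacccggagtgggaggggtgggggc
The E-box letters occur in 6.02% of the 32851 windows, counting both strands. The full CRE was found in none of the Lypd1 windows, which says only that these letters are not in them. Each Lypd1 window and the Cartpt window hold the GC box letters GGGCGG on one strand or the other, as do 32.7% of all windows. The CCAAT box letters, in 33.8% of windows, were in the other Lypd1 windows only. The arrays do not show which start was in use.

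Although the 3 genes shared a direction between diets, Cartpt and Lypd1 were not in the same order among mice of 1 diet. Zinc diet replicate 10 had the lowest Cartpt level of its group, 0.21 under the diet mean, and the highest Lypd1 level, 0.12 over the mean on the brighter probe set and 0.35 over it on the dimmer. Control replicate 9 had the lowest Cartpt level of the control mice (0.15 under the mean) and the highest Lypd1 level on the brighter probe set (0.19 over it). Control replicate 1 was the lowest control mouse for both Trhr probe sets and both Lypd1 probe sets, but not for Cartpt. For deviations from the diet means, Cartpt and the brighter Lypd1 probe set correlated at r = -0.82, the brighter Trhr probe set and Cartpt at 0.23, and the brighter Trhr probe set and the brighter Lypd1 probe set at 0.24. Over all 6 arrays, diet difference included, the same pairs had r = 0.84, 0.94 and 0.93. With the dimmer Lypd1 probe set, deviations correlated at r = 0.69 for the brighter Trhr probe set and at -0.43 for Cartpt. These are descriptions over 6 arrays.

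**Figure D2:**
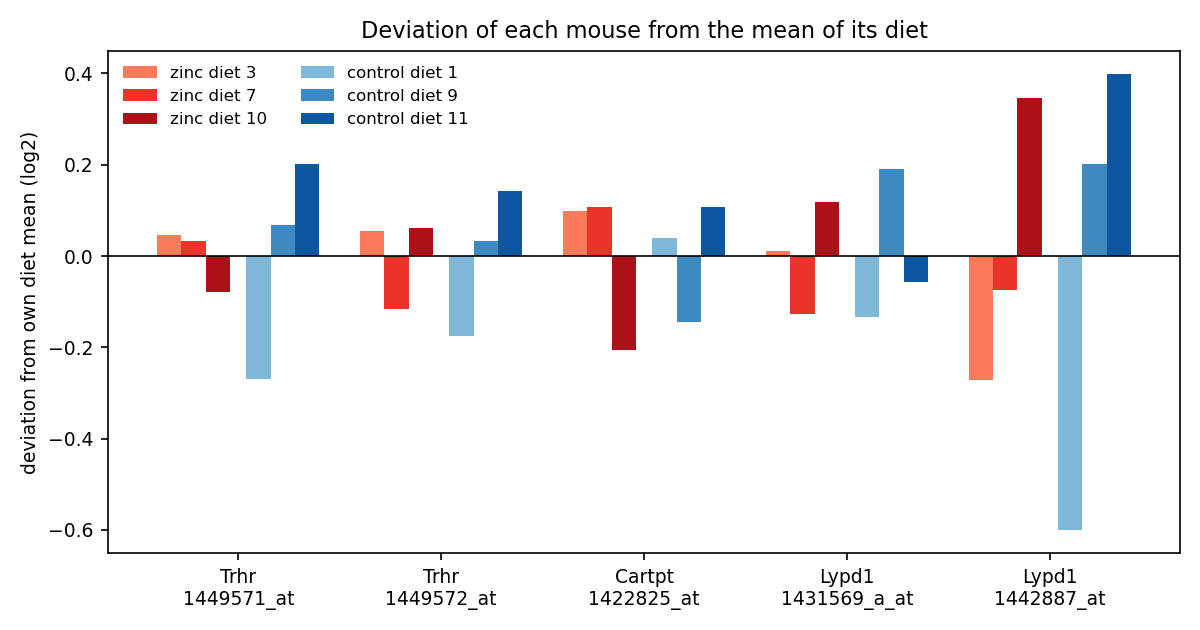
Deviation of each mouse from the mean of its own diet (y axis, log2 units) for the 5 probe sets, with 3 zinc diet mice in red and 3 control mice in blue. Zinc diet replicate 10 and control replicate 9 are the lowest of their groups for Cartpt and the highest for the brighter Lypd1 probe set.

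Genes whose pattern was most like each member were ranked by Pearson's r over the 6 arrays among named probe sets, as a description. For Trhr they were Vps9d1 (r = 0.997), Tmbim6, Nadsyn1, Tmub2, Mmd2 and Pi4k2a (0.99 each). Their log2 differences were small beside that of Trhr, from -0.30 for Nadsyn1 to -0.11 for Tmub2. The most opposite were Medag, Khsrp and Armcx1 (r = -0.99 each). For Cartpt the most like were Tars2, Gdpd2, Klhl26 and Edc4 with Rps7 and 1700094D03Rik, at r from 0.98 to 0.99, of which Gdpd2 differed most, by -0.50 ± 0.11 (SE).

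The probe sets most opposite to Cartpt were those of Lypd6 (the one of its 3 tested probe sets with the largest difference, r = -0.998), Tubgcp6 (-0.997) and Satb1 (-0.993). Lypd6, a relative of Lypd1, had 6.38 ± 0.20 in zinc diet mice and 5.50 ± 0.16 in controls on that probe set (SD, n = 3 each). For Lypd1 the most like were Grhl1 (r = 0.99), Nr2f2, Cmbl, Ankrd13d, Prkg2 and Gpc3 (0.98 to 0.99). Nr2f2, an orphan nuclear receptor gene, had 10.41 ± 0.09 in zinc diet mice and 11.09 ± 0.15 in controls (SD, n = 3 each). The most opposite to Lypd1 were the forkhead factor gene Foxp2 (r = -0.998), the axon guidance receptor gene Robo1 (-0.99) and the dopamine receptor gene Drd1 (-0.99). Foxp2 had 9.66 ± 0.17 in zinc diet mice and 8.79 ± 0.15 in controls, and Drd1 had 9.64 ± 0.15 in zinc diet mice and 8.88 ± 0.13 in controls (SD, n = 3 each). All of these r include the diet difference by which the members were chosen. For each member, 31 to 51 probe sets had r over 0.95 (0.16% to 0.26%), so the genes named are not read as particular partners. Ranked by deviations from the diet means, 0 of the 6 most like genes were kept for any of the 3 members. With Spearman's rho, 32 to 45 probe sets tied at the highest value over 6 arrays, so no 6 genes could be singled out.

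The genes around the members were then examined from lists of 9 pathways, 1 probe set per gene, leaving Trhr, Cartpt and Lypd1 themselves out. Of the 101 listed genes tested, 0 passed over all probe sets in limma (smallest adjusted p = 0.378). At an unadjusted p under 0.05, 4 were lower and 12 higher in zinc diet mice, or 15.8% in either direction, where 7.04% of the 11221 named genes tested were called (2.68% lower and 4.36% higher). The lists were chosen with earlier results of these data known, so nothing is read from the larger share. The lower count was 1 without zinc diet replicate 3 or 7, 7 without control replicate 1 and 0 without control replicate 11, and the higher count was 5 without zinc diet replicate 7. The median log2 difference of the 101 genes was 0.033, and that of all named genes 0.0125. No gene named below from these lists passed the adjusted threshold.

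On the ligand side of Trhr, TRH itself was near the low end of the scale. Trh, the precursor gene, had 4.35, 4.53 and 3.98 in zinc diet mice, against 4.28, 3.76 and 4.10 in control mice, and the groups overlapped (difference 0.24 ± 0.18 SE). Trhde encodes the membrane enzyme that breaks TRH down outside the cell. It had 7.38, 7.66 and 7.59 in zinc diet mice, against 7.32, 7.08 and 7.19 in control mice. Every zinc diet mouse was above every control mouse, by 0.35 ± 0.11 on average (SE, limma adjusted p = 0.698), the opposite direction to Trhr. The prohormone processing genes Pcsk1, Cpe and Pam, whose products cut and amidate TRH and other peptides, differed by -0.0080, 0.014 and -0.027. Of the glutaminyl cyclases that form the ring at the start of TRH, Qpct differed by 0.13 ± 0.11 (SE) and Qpctl by -0.21 ± 0.12, or -0.031 ± 0.12 on its other probe set. Of 8 genes tested of 10 listed, 0 were lower and 1 (Trhde) was higher at an unadjusted p under 0.05. The second TRH receptor gene, Trhr2, had levels of 3.30 to 3.47 in zinc diet mice and 3.49 to 3.55 in controls, under the minimum of 4.

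Downstream of Trhr, the Gq and phospholipase C list had 15 genes tested of 21, with a median difference of 0.024. None was lower and 2 were higher at an unadjusted p under 0.05: Camk4, a calcium-dependent kinase gene (0.25 ± 0.10 SE), and Prkcb, a protein kinase C gene (0.19 ± 0.08). The groups did not overlap in 6 genes higher and 1 lower, where 8.12% and 5.55% of named genes did so (13.7% in either direction). The G protein genes Gnaq and Gna11 themselves differed by -0.011 and 0.024. Plcb4, a phospholipase C gene, differed by 0.26 ± 0.12 (SE), and Rgs2, which encodes an inhibitor of Gq signalling, by 0.15 ± 0.07. Genes of thyroid hormone transport, conversion and receptors had 6 tested of 12 listed, with 0 in either direction at an unadjusted p under 0.05 and a median of -0.032. Crym, a thyroid hormone-binding protein gene, differed by -0.32 ± 0.14 (SE), Slco1c1, a thyroxine transporter gene, by -0.16 ± 0.15, Klf9 by 0.11 ± 0.07 and Dio2, the gene of a thyroxine-activating enzyme, by 0.07 ± 0.07. The 5 other tested Klf9 probe sets differed by 0.12 to 0.29, and the other of Dio2 by -0.053 ± 0.20 (SE), the opposite sign.

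Other neuropeptide receptors showed no common direction with Trhr. Of 51 listed, 23 were tested, with 1 lower and 1 higher at an unadjusted p under 0.05 and a median difference of 0.044. Oxtr, the oxytocin receptor gene, was the lower one, with 5.66, 5.50 and 5.54 in zinc diet mice, against 5.63, 5.90 and 5.97 in control mice (-0.27 ± 0.11 SE). Npy5r, a neuropeptide Y receptor gene, was the higher one, with 8.75, 8.97 and 9.03 in zinc diet mice, against 8.39, 8.48 and 8.45 in control mice (0.48 ± 0.09 SE). Its other tested probe set differed by 0.019 ± 0.17 (SE), so the probe sets of Npy5r did not give the same size. Npy1r (0.28 ± 0.15 SE) and the somatostatin receptor gene Sstr4 (0.26 ± 0.14) had the next smallest p-values. Gpr160, proposed as a receptor for CART, was at 2.33 to 2.43 in zinc diet mice and 2.24 to 2.52 in controls, under the minimum.

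Among neuropeptide precursors, the peers of Cartpt, 22 of 38 listed were tested, with 1 lower and 3 higher at an unadjusted p under 0.05. The median difference was 0.11. The lower one was Nppc, the C-type natriuretic peptide gene (-0.42 ± 0.17 SE), which was -0.24 without control replicate 9. The higher ones were Penk, the enkephalin precursor gene (0.35 ± 0.08), Tac1, the substance P precursor gene (0.35 ± 0.10), and Crh, the corticotropin-releasing hormone gene (0.43 ± 0.17). Without control replicate 9, Crh differed by 0.26. The most negative difference of a tested precursor on the list was -0.59, in Grp. That of Cartpt was more negative, but Cartpt had been chosen by its difference. Granin and prohormone processing genes had 18 tested of 19, with 0 in either direction at an unadjusted p under 0.05 and differences from -0.16 to 0.11. Pcsk5 (-0.16 ± 0.12 SE), Cpd (-0.15 ± 0.14), Cadps2 (-0.12 ± 0.10) and Furin (0.11 ± 0.07) had the smallest p-values of that list, and 5 other Cpd probe sets ranged from -0.29 to 0.08.

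The LY6/uPAR family differed in both directions around Lypd1. Of 28 genes listed, 6 were tested, and 2 were lower and 2 higher at an unadjusted p under 0.05. Lypd6 and Lypd6b, which encode close relatives that act on nicotinic receptors, were in the opposite direction to Lypd1. Lypd6b had 5.68, 5.53 and 5.61 in zinc diet mice, against 4.80, 5.21 and 5.08 in control mice (0.58 ± 0.12 SE, limma adjusted p = 0.431). Lypd6 had 8.39, 8.32 and 8.56 in zinc diet mice, against 7.95, 7.95 and 7.98 in control mice (0.46 ± 0.08 SE, limma adjusted p = 0.378). Its other tested probe sets differed by 0.87 ± 0.13 and 0.27 ± 0.14 (SE), so all of its probe sets were higher in zinc diet mice. Ly6h, another neuronal member, had 12.82, 12.83 and 12.85 in zinc diet mice, against 13.04, 12.96 and 13.07 in control mice (-0.19 ± 0.07 SE). Cd59a, a complement inhibitor gene, differed by -0.22 ± 0.09 (SE), and by -0.14 ± 0.10 on its other probe set. Lynx1, the founding prototoxin gene, differed by 0.18 ± 0.12 (SE) with overlapping groups, on a probe set whose design (_x_at) can match other transcripts, and by 0.075 ± 0.13 on its other one.

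The receptors on which prototoxins act were mostly under the minimum, with 3 of 16 nicotinic subunit genes tested. Chrna7 differed by 0.18 ± 0.10 (SE), Chrna4 by 0.09 ± 0.09 and Chrnb2 by -0.04 ± 0.14, and the diets overlapped in all 3. The other tested Chrna4 probe set differed by -0.07 ± 0.08 (SE), the opposite sign. Of 15 genes listed for nicotinic receptor assembly and cholinergic signalling, 4 were tested and 3 were higher at an unadjusted p under 0.05. Ric3, a chaperone gene for nicotinic receptors, differed by 0.18 ± 0.07 (SE), and Ache, the acetylcholinesterase gene, by 0.40 ± 0.14. Other tested probe sets of Ric3 gave 0.097 ± 0.14 and 0.15 ± 0.22 (SE), and Ache differed by 0.25 without control replicate 9. Prima1, which encodes the membrane anchor of acetylcholinesterase, had 4.84, 5.75 and 4.29 in zinc diet mice, against 3.40, 3.36 and 4.49 in control mice (1.21 ± 0.44 SE). Its groups overlapped, its control levels were near or under the minimum, and with values under 4 set to 4 it differed by 0.80. Prima1 had a mean of 3.75 in controls and 4.96 in zinc diet mice, so it passed the minimum of 4 only through the zinc diet mice. Its place among the 3, and among the higher pathway genes, is therefore not read as a result. The muscarinic receptor gene Chrm1 differed by 0.0090 ± 0.13 (SE).

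**Figure D3:**
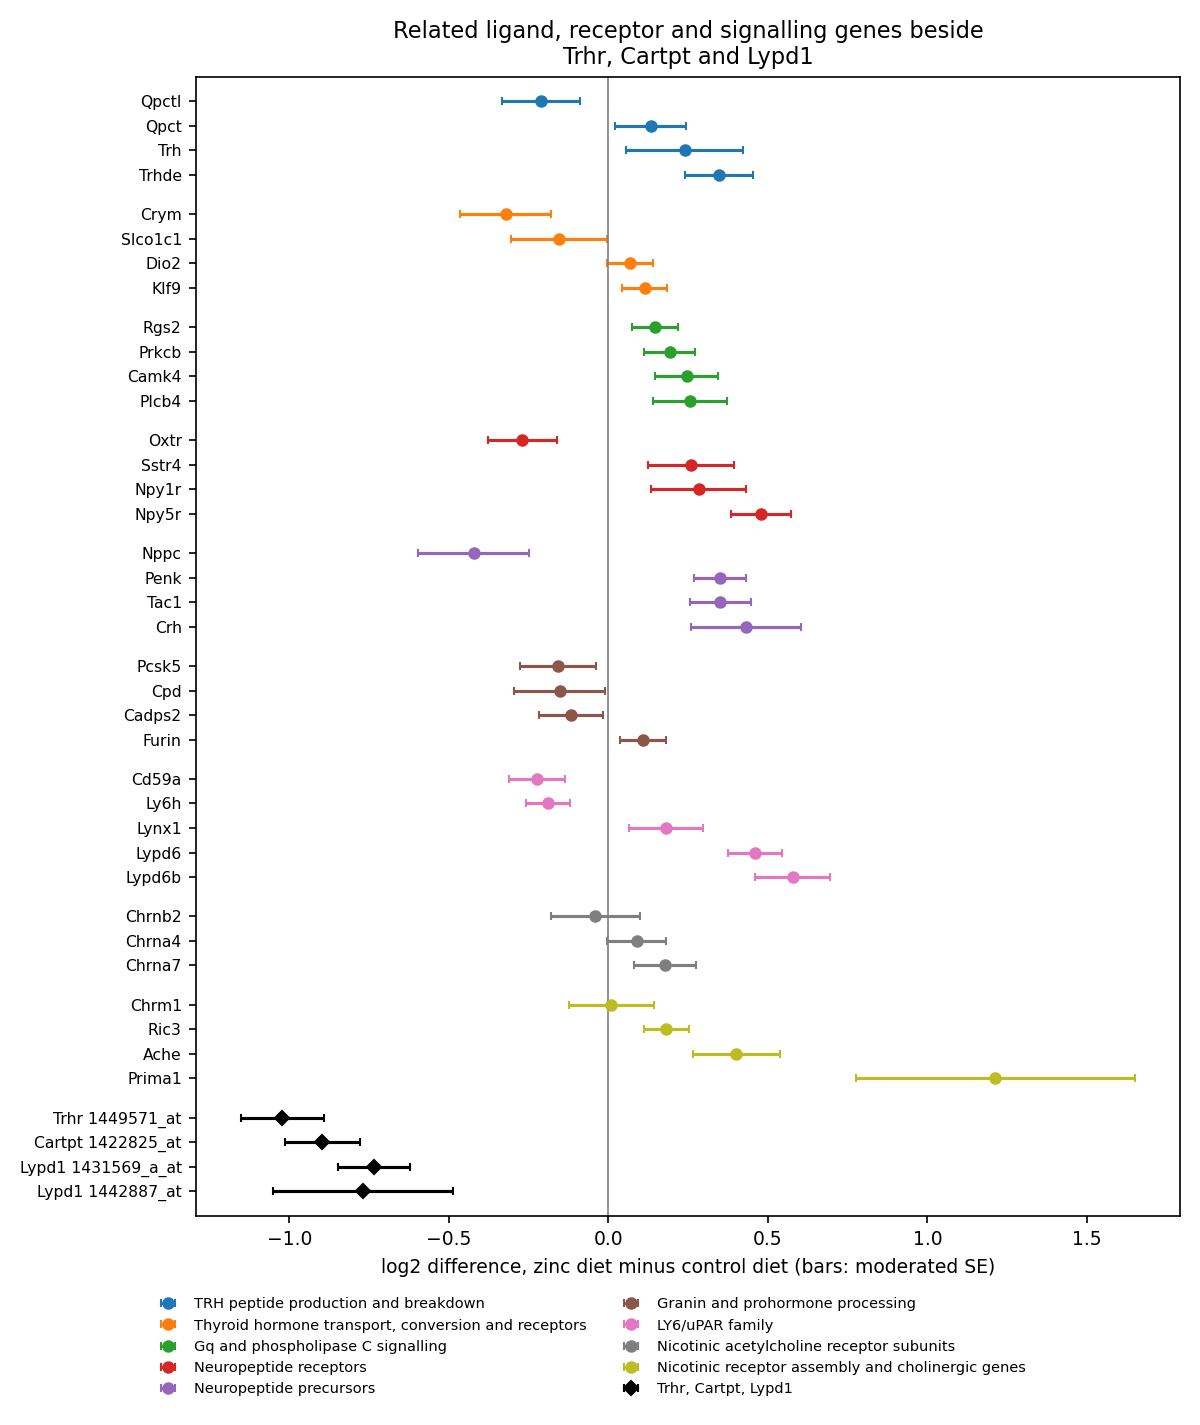
Log2 difference, zinc diet minus control diet (x axis, bars are moderated SE, 3 mice per diet), of the named genes of 9 pathway lists (colours), with the 4 tested probe sets of Trhr, Cartpt and Lypd1 (black diamonds) at the bottom. The black diamonds lie between -1.02 and -0.74, while Trhde, Lypd6 and Lypd6b lie at 0.35, 0.46 and 0.58.

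Because the tissue was dissected, markers of amygdala divisions and of neighbouring regions were read beside these results. Mean levels of 15 lists were compared by a two-sided exact permutation test of 3 against 3, which cannot give a p under 0.1. After Benjamini-Hochberg adjustment over the 15 lists, those at 0.1 had 0.3. The marker lists, too, were chosen with earlier results of these data known, so nothing is read from their p-values. Medial and cortical amygdala markers (8 tested of 11) had means per mouse of 6.58 to 6.92 in zinc diet mice and 6.93 to 7.19 in controls (exact p = 0.1). The list means nearly met, at 6.92 in zinc diet replicate 7 and 6.93 in control replicate 9. Of the 8 genes, 6 were lower and 2 higher, Pgr (0.09) and Sim1 (0.20). The most negative was the oestrogen receptor gene Esr1, with 6.20, 5.82 and 6.12 in zinc diet mice, against 6.44, 7.59 and 7.45 in control mice. It differed by -1.11 ± 0.30 (SE), and how far the gap between the list means rests on Esr1 was not tested. The other 3 lists with diets fully apart inside the amygdala and striatum ran the other way. Striatal spiny neuron markers (8 of 10) had 8.32 to 8.83 in zinc diet mice and 6.62 to 7.04 in controls, with an exact p of 0.1. Intercalated cell markers (5 of 5) had 10.88 to 11.04 in zinc diet mice and 10.37 to 10.65 in controls, and central amygdala markers (9 of 9) had 8.31 to 8.44 in zinc diet mice and 7.78 to 8.16 in controls (exact p = 0.1 each). Of the 9 central amygdala genes, 7 were higher, from 0.06 for Prkcd to 0.64 for Zfp503 and 1.37 for Isl1, the 2 largest. Sst (-0.15) and Dlk1 (-0.03) were lower. The part of these marker shifts in the levels of Trhr, Cartpt and Lypd1 was not tested.

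Diets overlapped in the means of basolateral and excitatory neuron markers (10 of 11, 9.64 to 9.89 in zinc diet mice and 9.56 to 9.66 in controls, exact p = 0.3) and of GABA interneuron markers (11 of 11, 10.14 to 10.21 in zinc diet mice and 10.12 to 10.28 in controls, exact p = 0.8). Single genes of both lists did not overlap, in both directions: 2 lower and 2 higher in the basolateral list, 2 lower and 1 higher in the GABA list. Of all named genes, 5.55% were lower and 8.12% higher in this way. Rspo2 (0.77) and Lmo3 (-0.43) were the furthest apart of the basolateral ones, and Pvalb (0.74) and Dlx1 (-0.38) of the GABA ones. Means of astrocyte (exact p = 1), microglia (0.9), oligodendrocyte precursor (0.5), myelin (0.3), meningeal (0.9), hippocampus (0.2), hypothalamus and thalamus (0.7) and choroid plexus markers (0.5) overlapped too. Some of these means rest on few genes: 2 tested of 7 for meningeal, 3 of 7 for hippocampus and 5 of 10 for choroid plexus markers. The meningeal genes had 1 lower and 1 higher, and the hippocampus genes 1 lower and 2 higher. Endothelial and pericyte markers did not overlap, at 7.19 to 7.22 in zinc diet mice and 7.01 to 7.16 in controls (exact p = 0.1). Choroid plexus markers averaged 8.57 in control replicate 9 and 5.55 to 6.30 in the other 5 mice. Without that mouse the differences were -0.99 for the brighter Trhr probe set, -0.97 for Cartpt, and -0.64 and -0.67 for the brighter and the dimmer Lypd1 probe set. Myelin markers averaged 10.28 in zinc diet replicate 7, against 9.54 and 9.64 in the other zinc diet mice and 9.08 to 9.69 in control mice. Without that mouse the differences of the same 4 probe sets were -1.04, -0.95, -0.67 and -0.73.

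**Figure D4:**
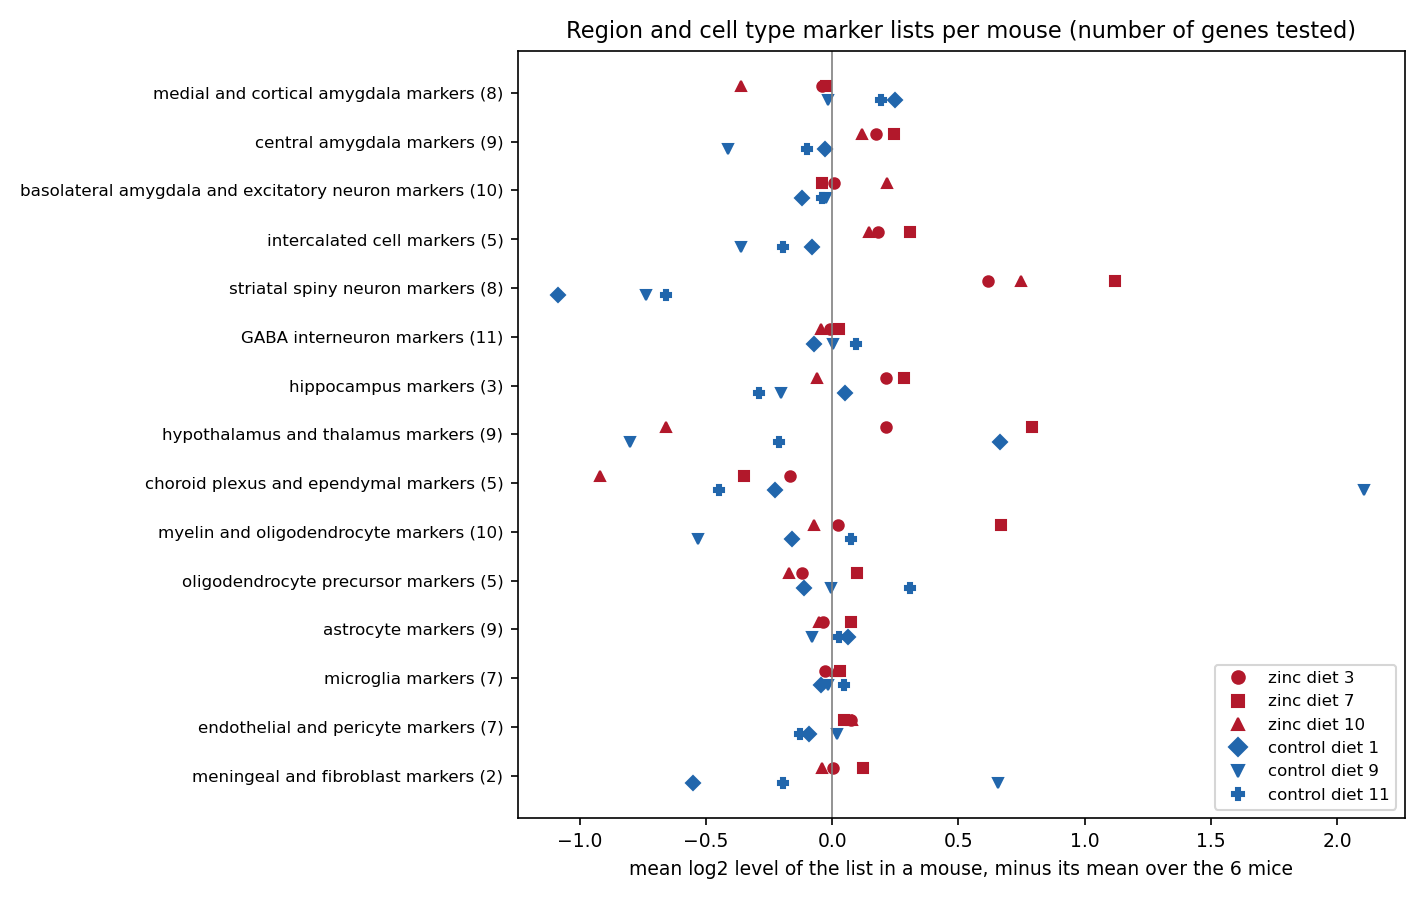
Mean log2 level of each marker list in a mouse, minus the mean of the list over the 6 mice (x axis), with zinc diet mice in red above control mice in blue on each line. Means of medial and cortical amygdala markers are lower in zinc diet mice, and those of striatal, intercalated and central amygdala markers are higher. Single genes of the medial and central lists differed in both directions. Choroid plexus markers stand apart in control replicate 9.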

How the data were processed

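RNA from the amygdala of 6 mice was hybridised to Affymetrix Mouse430_2 arrays, 500 ng of RNA per sample, per the labels' protocols. The values are log2 probe set levels deposited by the authors as 1 table. Per the submitters' processing notes, the tools were GCRMA 2.28.0 and R 2.15.1, whose roles are not given. That the scale is log2 was inferred from the range of values, and any centring is unknown. No scanner file was used here, and no detection call was at hand. The number of arrays limits the precision.

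In the platform annotation 34958 probe sets had 1 gene symbol, 932 several and 9211 none, and 64 control probe sets were left out. Entrez numbers of 34754 matched RefSeq (GRCm38.p6), from which gene positions and promoter windows come. Trhr has no window in the table used. Probe sets with a mean of at least 4 over all arrays were fitted with limma 3.58.1 in R 4.3.3 (diet as the only term, two-sided, Benjamini-Hochberg over 22877 probe sets). The fit was tested on simulated data.

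The members and lists were chosen with earlier results of these data known. In lists, the probe set with the highest mean stood for a gene. Named were all probe sets of the members, the 6 named genes most like and 3 most opposite to each by Pearson's r, up to 4 genes of each pathway list with the smallest p, and 10 receptor, ligand or prototoxin genes. Other genes given with values were chosen after these were seen. Nothing says whether the mice shared cages or litters, so p-values measure the spread between these mice. The alternatives tried were leaving out each mouse, array weights, the title number as a covariate, median centring, quantile normalization, eBayes with trend and robust options, a minimum mean of 6 or none, values under 4 set to 4, averaging a gene's probe sets or keeping 1 of them, and other likeness measures.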

Additional observations from a re-analysis of the deposited data

How the results depend on the processing

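The differences of the brighter Trhr probe set (-1.16 to -0.92), Cartpt (-0.97 to -0.79), the brighter Lypd1 probe set (-0.80 to -0.64) and the dimmer Lypd1 probe set (-1.07 to -0.57) stayed negative under 14 alternatives each and moved by less than 1 SD, pooled over both diets. For these probe sets, the minimum mean, the eBayes options and setting values under 4 to 4 could not change a difference. Leaving out a mouse could not turn the sign where the diets did not overlap. The dimmer Trhr probe set ranged from -0.43 to 0.0. The upper end was fixed in advance, since setting values under 4 to 4 makes all values of that probe set equal. The mean of both Trhr probe sets gave -0.68. Of the 6 genes most like Trhr, Cartpt and Lypd1, 0 were shared with the 6 highest by deviations from the diet means. By Spearman's rho 0 were shared too, but 32 to 45 probe sets tied at the highest rho, so that overlap says nothing.

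Probe sets past the adjusted threshold numbered 2 at a mean of at least 6, 3 with trend and robust eBayes, 1 with the title number as a covariate, 1 with 1 probe set per gene and 0 without each mouse. At an unadjusted p under 0.05, the lower count was 1226 with no filter, 1096 with array weights, 371 with 1 probe set per gene, 378 leaving out zinc diet replicate 7 and 1053 leaving out control replicate 1 (378 to 1053 over the mice left out). The higher count was 1249 with array weights and 475 without zinc diet replicate 7 (475 to 1188). Probe sets whose diets do not overlap, 1220 lower and 1523 higher, numbered 2510 and 2374 with no filter, 623 and 911 with 1 probe set per gene, and 1876 to 3176 and 2171 to 3438 with a mouse left out, where fewer mice make overlap rarer.

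Among pathway genes, the lower count of 4 was 1 at a mean of at least 6 and with median centring, 8 with array weights, 7 with the title number as a covariate and 0 to 7 without a mouse. The higher count of 12 was 5 to 13 without a mouse. Of the 36 named pathway genes, 33 kept their direction in all alternatives. Chrm1 was -0.011 with quantile normalization and -0.091 with array weights (-0.086 to 0.13 without a mouse), Chrnb2 was 0.054 with array weights (-0.13 to 0.081) and Slco1c1 was 0.015 without control replicate 9 (-0.27 to 0.015). The cause was not tested. No paired analysis was possible because the diets share no replicate numbers. Without a background measure, levels under 4 limit what can be said of the dimmer Trhr probe set, Trhr2, Gpr160 and most nicotinic subunits.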

Other observations

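Avp and Pmch varied among mice of 1 diet more than the members did, and their diets overlapped. Avp, the vasopressin gene, had 9.84, 9.14 and 4.73 in zinc diet replicates 3, 7 and 10, against 10.96, 4.38 and 5.63 in control replicates 1, 9 and 11. Pmch, the melanin-concentrating hormone gene, had 9.0 in zinc diet replicate 7, against 3.49 and 3.53 in the other zinc diet mice and 2.84 to 4.0 in control mice. Grp, the gastrin-releasing peptide gene, had 8.24, 8.32 and 8.86 in zinc diet mice, against 8.57, 9.45 and 9.15 in control mice (-0.59 ± 0.26 SE, limma adjusted p = 0.789), with overlapping groups. Pnoc, the nociceptin precursor gene, had 7.52, 7.44 and 7.25 in zinc diet mice, against 7.89, 7.53 and 7.60 in control mice (-0.27 ± 0.12 SE, limma adjusted p = 0.799), and its groups nearly met. These 4 genes were picked out after their values were seen.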
